A study of Mus musculus with 12 samples.

Results

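The 10 genes described here are core parts of the circadian clock: *Arntl* (also called Bmal1), *Clock*, *Per1*, *Per2*, *Cry1*, *Cry2*, *Nr1d1*, *Nr1d2*, *Dbp* and *Bhlhe40*. They were taken by name from a table of 13232 genes, and all 10 were present. The table covers bone marrow-derived macrophages grown from mice, WT and of the C57B6/J strain, on a high-fat diet (HFD) or a normal one (ND), with 3 libraries for each. Whole marrow was cultured with 20 ng/ml of the growth factor M-CSF and moved to serum-free medium on day 4. On day 7 the cells of both groups spent 1 h in a chamber at 1% oxygen, so both carry the same hypoxia exposure and the only labelled difference between them is the diet. The normal-oxygen libraries named in the labels were not analysed here, and nothing below describes the response to hypoxia itself. The labels used here give neither the length of the diet, the age and sex of the mice nor the time of day at which cells were lysed, and they do not say whether the libraries of a diet came from separate mice. P-values therefore measure the spread between these libraries, which may be technical.

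The clock is a feedback loop of transcription. The proteins of *Arntl* and *Clock* form a pair that binds E-box sequences and switches on the *Per*, *Cry*, *Nr1d*, *Dbp* and *Bhlhe40* genes. PER and CRY proteins then enter the nucleus and silence that pair, while the nuclear receptors encoded by *Nr1d1* and *Nr1d2* (REV-ERB alpha and beta) silence *Arntl* at ROR elements, and DBP acts at D-box elements. In macrophages the clock is known for setting the strength of inflammatory responses by time of day, and both BMAL1 and REV-ERB alpha restrain chemokine and cytokine genes. In culture, cells keep individual rhythms that drift apart unless a stimulus such as a medium change aligns them.

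The clock elements near annotated starts of these genes are shown here because the loop runs through them. RefSeq promoter windows (build GRCm38.p6, 250 bases before to 50 bases after a start) were matched for 8 of the 10 members, namely all but *Per2* and *Bhlhe40*. They were searched on both strands for the E-box CACGTG, the E-prime box CACGTT, the D-box TTATGNAA, the ROR element TAGGTCA or TGGGTCA and the cAMP element TGACGTCA. The E-box and E-prime box differ in their last letter, so a single site cannot count as both. A member was counted when any of its windows held the element. The same count is given over the 9021 genes of the table with a promoter, followed by the share of all 32851 promoter windows. An E-box was present for 2 members (*Per1* and *Cry1*), against 12.1% of those genes and 7.15% of windows. An E-prime box was present for 3 (*Cry1*, *Cry2* and *Nr1d1*), against 6.41% of genes and 4.68% of windows. A D-box was present for 1 (*Per1*), against 2.42% of genes and 3.38% of windows. The ROR element was found for 1, *Arntl*, where it lies after the start, against 5.84% and 6.45%. The cAMP element was found for none of the 8, against 3.68% and 1.79%. No element was found for *Clock*, *Nr1d2* or *Dbp*. These are letter matches in a short window and not measured binding sites. Both *Per1* stretches precede a start that lies inside the *Per1* locus, so they are not upstream of the whole gene. The stretches below run 5′ to 3′ on the strand of the gene, with the matched element in capitals.
Per1, chr11:69098763-69098808, plus strand, E-box: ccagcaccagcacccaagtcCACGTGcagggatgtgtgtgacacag
Per1, chr11:69098905-69098947, plus strand, D-box: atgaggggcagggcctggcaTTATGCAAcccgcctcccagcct
Cry1, chr10:85185089-85185153, minus strand, E-prime box then E-box: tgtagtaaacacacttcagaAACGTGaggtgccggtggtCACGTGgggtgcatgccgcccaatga
Cry2, chr2:92434210-92434255, minus strand, E-prime box: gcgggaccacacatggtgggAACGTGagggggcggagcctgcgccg
Nr1d1, chr11:98775380-98775425, minus strand, E-prime box: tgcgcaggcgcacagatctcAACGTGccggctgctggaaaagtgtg

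Before any comparison, the libraries were checked. All 8 macrophage markers had values, and their summed level overlapped between the diets (345313 to 395574 in ND, 342872 to 402478 in HFD). In mean log2 level 3 were higher and 5 lower in HFD, 1 of them lower at an unadjusted p under 0.05, where 5.18% of all genes were lower and 10.6% passed in either direction. Estimated depth was 19000000 to 22800000 reads in ND and 23000000 to 24500000 in HFD, with ND replicate 3 the shallowest. Neutrophil markers were measured for 7 of 10 genes, and their summed level was 1776 to 2592 in ND and 2367 to 3750 in HFD, higher in HFD on average for 7 of the 7 and at an unadjusted p under 0.05 for 2. Stromal markers were measured for 3 of 6 genes, all collagens, at 177 to 549 in ND and 51.8 to 337 in HFD. Their median on the log2 scale was -1.33, and 1 of the 3 was lower at an unadjusted p under 0.05. Of B cell markers only *Ighm* (1889 to 3061 in ND, 1876 to 2075 in HFD) and of T cell markers only *Cd4* (202 to 356 in ND, 98.1 to 230 in HFD) were measured, each out of 6. *Ighm* (log2 fold change -0.40) and *Cd4* (-0.70) were both lower in HFD at an unadjusted p under 0.05. The 6 proliferation markers summed to 9550 to 10668 in ND and 8133 to 11572 in HFD. By log2 fold change all 6 were lower in HFD, 2 of them at an unadjusted p under 0.05, the direction of 9 of the 10 members. The part of these lists in the clock values was not tested.

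The comparison sets clock gene levels in macrophages from HFD mice against those from ND mice under the same hypoxia. In mean level 9 of the 10 clock genes were lower in HFD and *Clock* was higher. Of all genes, 51.1% were lower. The members' median log2 fold change was -0.13, against -0.0034 for all genes tested. None of the 10 passed an adjusted p of 0.05 (limma, Benjamini-Hochberg over 13232 genes), and neither did any other gene (0% of all genes). Without ND replicate 3 there were 233 genes past that threshold, and 1133 with libraries weighted by their quality, in each case with no member among them. At an unadjusted p under 0.05 there was 1 member, *Dbp*, lower in HFD, beside the 5.18% of all genes lower at that level (10.6% in either direction). For 4 members (*Arntl*, *Per2*, *Cry2* and *Dbp*) every HFD library lay below every ND library, against 7.07% of all genes in that direction and 14.5% in either. Without ND replicate 3, every HFD library lay below every ND library for 7 members, where 18.2% of all genes did so with these 5 libraries. In that setting 2 members, *Dbp* and *Nr1d1*, were lower at an unadjusted p under 0.05, as were 8.44% of all genes. In bulk RNA, fewer cells expressing a gene and less RNA per cell cannot be told apart.

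**Figure D1:**
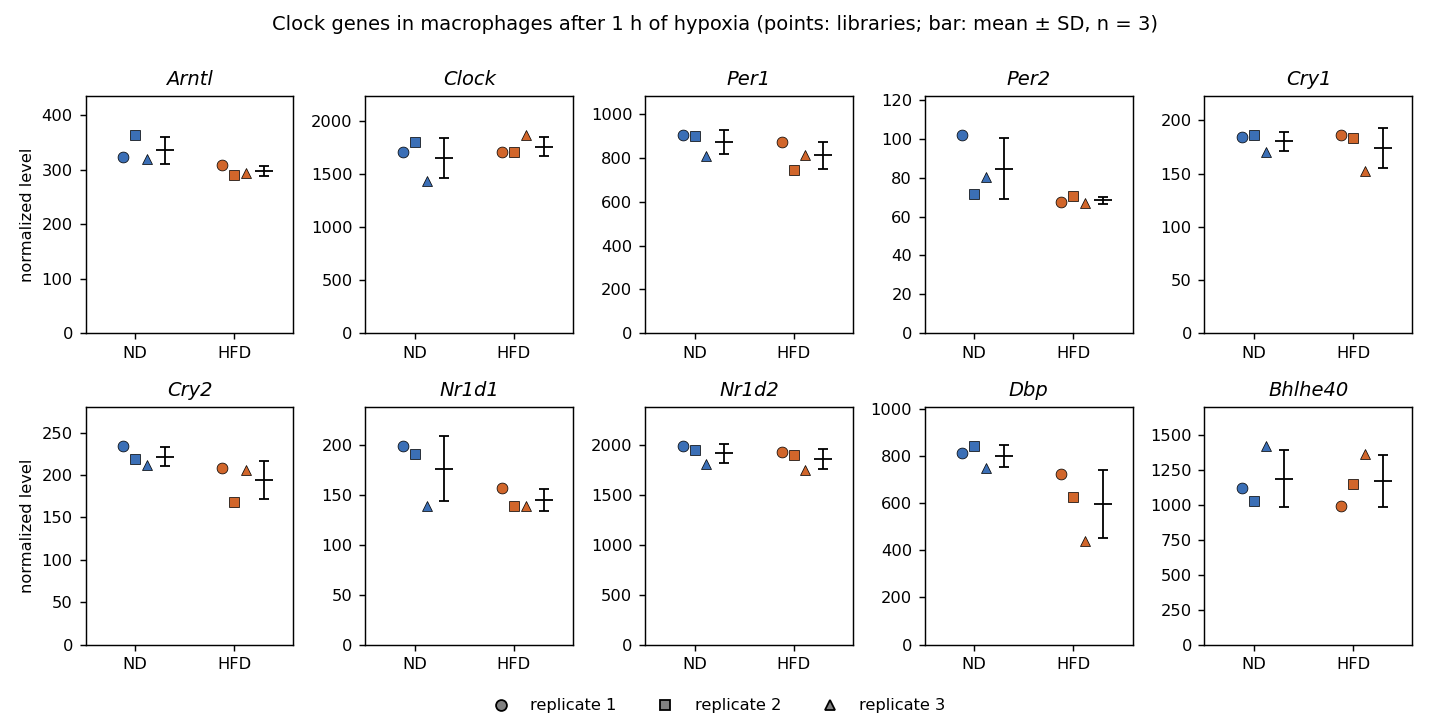
Normalized level (linear axis from 0) of each of the 10 clock genes in the 3 ND (blue) and 3 HFD (orange) libraries, with symbols for replicates and a bar for the mean ± SD. The diets do not overlap for *Arntl*, *Per2*, *Cry2* and *Dbp*, and relative to its mean the widest spread within a diet is that of *Dbp* in HFD.

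*Dbp*, the D-box activator that serves as a direct readout of the CLOCK and BMAL1 pair, had the largest diet difference of the 10. Its normalized level in replicates 1, 2 and 3 was 811, 840 and 749 for ND, and 722, 628 and 439 for HFD (values of other genes follow the same order). All HFD values lay below all ND values, but HFD replicate 1 was close to ND replicate 3 and HFD replicate 3 stood far below the rest. The ratio of the means, HFD over ND, was 0.746 (ND 800 ± 46.7, HFD 596 ± 144, SD, n = 3 libraries each). The log2 fold change was -0.45 (SE 0.15, 95% interval -0.80 to -0.10), with a limma adjusted p of 0.357, so the difference did not pass the threshold. It stood 592nd of 13232 genes by p, and its size exceeded that of 95.5% of genes. Without HFD replicate 3 the log2 fold change was -0.25, and without HFD replicate 1 it was -0.60. Among 13 alternatives its limma adjusted p lay between 0.0518 and 0.910.

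The *Dbp* value carries a limit of annotation. *Dbp* (chr7:45705088-45710203 of GRCm38, plus strand, in GENCODE M21 as for all loci below) overlaps the gene *Sphk2*, a sphingosine kinase on the opposite strand, and 26.5% of the 75-base windows of its longest transcript also lie in a *Sphk2* transcript read in reverse. Whether the authors counted by strand is not given in the sources used here, so reads of that part cannot be told apart. *Sphk2* had levels of 2343, 2335 and 2423 in ND and 2695, 2690 and 2358 in HFD, a log2 fold change of 0.12 (limma adjusted p 0.586). Its lowest HFD value was in the same library as that of *Dbp*, while its means were ordered the other way. Estimated read numbers were fractional in all 6 libraries for *Dbp*, *Cry2*, *Nr1d1* and *Nr1d2*, and whole (within 0.05 of a read) in all 6 for the other 6 members.

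The genes of the activating pair differed in direction. *Arntl* (chr7:113207465-113314126, plus strand), the indispensable subunit of the pair, had levels of 323, 364 and 320 in ND and 309, 291 and 295 in HFD. The HFD libraries lay just below the ND libraries and were closer to each other. Its log2 fold change was -0.17 (SE 0.090, 95% interval -0.37 to 0.035, limma adjusted p 0.568), and -0.11 without ND replicate 2. *Clock* (chr5:76209868-76304792, minus strand), which encodes the partner of BMAL1, had 1708, 1802 and 1437 in ND and 1702, 1704 and 1864 in HFD. These values overlapped, with a log2 fold change of 0.10 (SE 0.089, limma adjusted p 0.749). ND replicate 3 held the lowest *Clock* value of the 6, and without it the log2 fold change was 0.00062, against 0.16 without ND replicate 2. *Npas2*, which can stand in for *Clock*, also overlapped between the diets (117, 88.0 and 100 in ND, 109, 114 and 153 in HFD), as did *Rora*, an activator of *Arntl* at ROR elements (1004, 1003 and 727 in ND, 956, 924 and 907 in HFD). Taken within each library, which removes the scaling, the log2 ratio of *Clock* to *Arntl* was 2.40, 2.31 and 2.17 in ND and 2.46, 2.55 and 2.66 in HFD. This ratio was chosen after the values were seen, and all 3 HFD libraries lay above all ND libraries.

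Among the *Per* genes, whose proteins carry CRY into the nucleus and close the loop, *Per1* was far more abundant than *Per2*. *Per1* (chr11:69095217-69109960, plus strand) had 903, 901 and 808 in ND and 872, 746 and 815 in HFD. The ranges overlapped and the log2 fold change was -0.10 (SE 0.082, 95% interval -0.29 to 0.080, limma adjusted p 0.705), between -0.16 without HFD replicate 1 and -0.044 without HFD replicate 2. *Per2* (chr1:91415982-91459324, minus strand) had 102, 71.4 and 80.3 in ND and 67.5, 70.4 and 67.2 in HFD. The HFD libraries were tightly grouped and all below ND, but HFD replicate 2 almost reached ND replicate 2. Its log2 fold change was -0.29 (SE 0.17, 95% interval -0.67 to 0.10, limma adjusted p 0.610), and it lay between -0.40 with ND replicate 2 left out and -0.14 with ND replicate 1 left out. With an estimated 68 to 102 reads per library, counting error alone was up to 12.1% of a single *Per2* value, the highest of the 10 members.

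The cryptochromes are the direct repressors of the activating pair. *Cry1* (chr10:85131700-85185064, minus strand) had 185, 186 and 170 in ND and 186, 183 and 153 in HFD, a log2 fold change of -0.055 (95% interval -0.32 to 0.21, limma adjusted p 0.906). Its HFD replicates 1 and 2 were level with ND, and without HFD replicate 3 its sign turned (0.037). *Cry2* (chr2:92403646-92434043, minus strand) had 234, 220 and 212 in ND and 208, 168 and 206 in HFD. The diets were apart, though HFD replicates 1 and 3 came close to ND replicate 3. The log2 fold change of *Cry2* was -0.20 (SE 0.12, 95% interval -0.46 to 0.064, limma adjusted p 0.603), and -0.096 without HFD replicate 2. The log2 ratio of *Cry1* to *Cry2* within a library was -0.34, -0.24 and -0.32 in ND and -0.16, 0.12 and -0.44 in HFD, which overlapped.

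The REV-ERB genes differed in level more than in their diet contrast. *Nr1d1* (chr11:98767932-98775333, minus strand) had 198, 191 and 139 in ND and 157, 138 and 138 in HFD. ND replicate 3 sat among the HFD libraries and the other 2 ND libraries above all of them. Its log2 fold change was -0.27 (SE 0.15, 95% interval -0.61 to 0.073, limma adjusted p 0.588), -0.43 without ND replicate 3 and -0.17 without ND replicate 1. Its limma adjusted p lay between 0.0615 and 0.971 in the alternatives. *Nr1d1* overlaps *Thra*, a thyroid hormone receptor gene on the opposite strand, in 7.37% of the 75-base windows of its longest transcript. *Thra* had 502, 473 and 433 in ND and 414, 501 and 400 in HFD (log2 fold change -0.10, limma adjusted p 0.778). *Nr1d2* (chr14:18204054-18239127, minus strand) had 1990, 1957 and 1813 in ND and 1939, 1901 and 1753 in HFD, the narrowest spread of the 10 relative to its mean, with a log2 fold change of -0.043 (95% interval -0.19 to 0.11, limma adjusted p 0.866). Without HFD replicate 3 it was 0.00088. The log2 ratio of *Nr1d1* to *Arntl*, genes on opposite arms of the loop, was -0.71, -0.93 and -1.21 in ND and -0.98, -1.07 and -1.09 in HFD. The HFD libraries lay inside the ND range, and the difference of means was -0.10, or 0.019 without ND replicate 1.

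*Bhlhe40* (chr6:108660629-108666925, plus strand) encodes DEC1, a repressor that competes for E-boxes and is also known as a hypoxia-induced gene. It had 1117, 1026 and 1416 in ND and 994, 1148 and 1362 in HFD. The third replicate was the highest in each diet and the ranges almost coincided. Its log2 fold change was -0.020 (SE 0.14, 95% interval -0.33 to 0.28, limma adjusted p 0.976), and its sign turned without ND replicate 3 (0.11) or HFD replicate 1 (0.090). In the alternatives its limma adjusted p was at least 0.673.

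**Figure D2:**
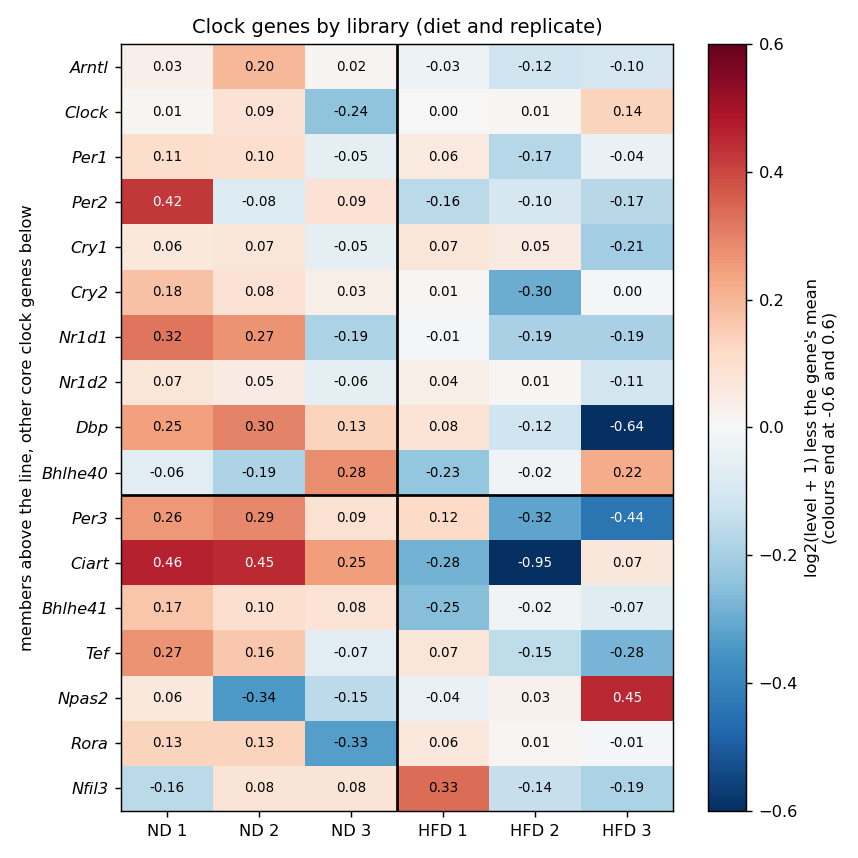
Heat map of log2(level + 1) less the gene's mean over the 6 libraries, for the 10 members (above the line) and 7 other core clock genes (below), with the value printed in each cell. *Dbp* reaches -0.64 in HFD replicate 3, *Ciart* -0.95 in HFD replicate 2, and *Nr1d1* in ND replicate 3 (-0.19) is level with HFD replicates 2 and 3.

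A wider list of 30 other clock genes, chosen by role, had 25 with values in the table. None passed the adjusted threshold (limma), 13 were higher and 12 lower in HFD, and the median log2 fold change was 0.000053. At an unadjusted p under 0.05 there were 4 lower and 1 higher of the 25, beside 10.6% of all genes in either direction. HFD and ND libraries were apart for 6, of which 3 were higher and 3 lower, beside 14.5% of all genes. The unadjusted count of 5 was 3 without ND replicate 1, ND replicate 2 or HFD replicate 2, each left out alone, where the share of all genes was 5.29%, 8.01% and 5.49%. The 4 lower genes were *Per3*, *Bhlhe41* (DEC2), *Ciart* (CHRONO, a repressor that binds BMAL1) and *Tef*, a D-box activator related to *Dbp*. Across all genes, 5.18% were lower at this level. The first 3 made up the group listed as repressors. *Nfil3*, a repressor listed with the D-box factors, was not lower (log2 fold change 0.0031, limma adjusted p 0.996).

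*Ciart* had 51.9, 51.3 and 44.7 in ND and 30.6, 18.9 and 39.2 in HFD, all lower than ND. Its log2 fold change was -0.77 (SE 0.28, limma adjusted p 0.385), and it was a low gene whose value without HFD replicate 2 was -0.49. *Per3* had 402, 411 and 358 in ND and 364, 269 and 248 in HFD, where HFD replicate 1 lay just above ND replicate 3. The log2 fold change of *Per3* was -0.43 (SE 0.14, limma adjusted p 0.338). *Bhlhe41* had 2586, 2472 and 2438 in ND and 1934, 2273 and 2191 in HFD. The diets were apart, and the log2 fold change was -0.23 (SE 0.073, limma adjusted p 0.319). *Tef* had 1946, 1807 and 1541 in ND and 1697, 1452 and 1330 in HFD, overlapping, with a log2 fold change of -0.24 (SE 0.11, limma adjusted p 0.471). Among the alternatives *Per3* had a limma adjusted p between 0.0242 and 0.904, *Ciart* between 0.0275 and 0.934, *Tef* between 0.0375 and 0.956 and *Bhlhe41* between 0.0688 and 0.910. In these the lowest values came with libraries weighted by quality.

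Of the wider list, only the promoters of the 4 lower genes above were read one by one, a choice made from these values. An E-box was present for 12.1% of the 9021 genes with a promoter, and a D-box for 2.42%. Any link between such elements and the diet difference was not tested. Stretches are printed for the 3 listed repressors. *Ciart* carries 3 E-boxes, *Per3* 2 D-boxes and *Bhlhe41* 1 E-box in the searched window, from RefSeq as above. *Tef* holds 1 E-box in each of its 2 windows, which are not printed.
Ciart, chr3:95882262-95882364, minus strand, E-boxes: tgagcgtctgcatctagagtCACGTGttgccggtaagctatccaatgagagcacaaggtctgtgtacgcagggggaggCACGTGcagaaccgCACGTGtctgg
Per3, chr4:151044796-151044890, minus strand, D-boxes: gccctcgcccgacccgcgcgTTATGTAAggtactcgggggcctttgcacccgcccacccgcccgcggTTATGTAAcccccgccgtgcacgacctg
Bhlhe41, chr6:145865559-145865593, minus strand, E-box: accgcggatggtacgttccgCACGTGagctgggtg

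Of 11 measured genes for protein turnover and post-translational control, 4 were higher and 7 lower in HFD (median -0.027 on the log2 scale), and none reached an unadjusted p under 0.05. This group holds the casein kinases that phosphorylate PER (*Csnk1d*, *Csnk1e*). *Nfil3*, the repressor at D-boxes, overlapped between the diets (245, 290 and 291 in ND, 347, 250 and 241 in HFD). Of 7 output genes 6 were higher and 1 was lower, with a median of 0.11. Of these, *Klf9*, a Krüppel-like factor under clock and glucocorticoid control, had 410, 419 and 530 in ND and 584, 639 and 669 in HFD. HFD lay above ND throughout and the log2 fold change was 0.48 (SE 0.11), but the limma adjusted p was 0.217, between 0.00655 and 0.860 in the alternatives (0.0163 without ND replicate 3). *Klf10* (1167, 1189 and 1360 in ND, 1229, 1530 and 1735 in HFD) overlapped between the diets (log2 fold change 0.26, limma adjusted p 0.479). Its log2 fold change was 0.15 without HFD replicate 3 and 0.40 without HFD replicate 1.

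**Figure D3:**
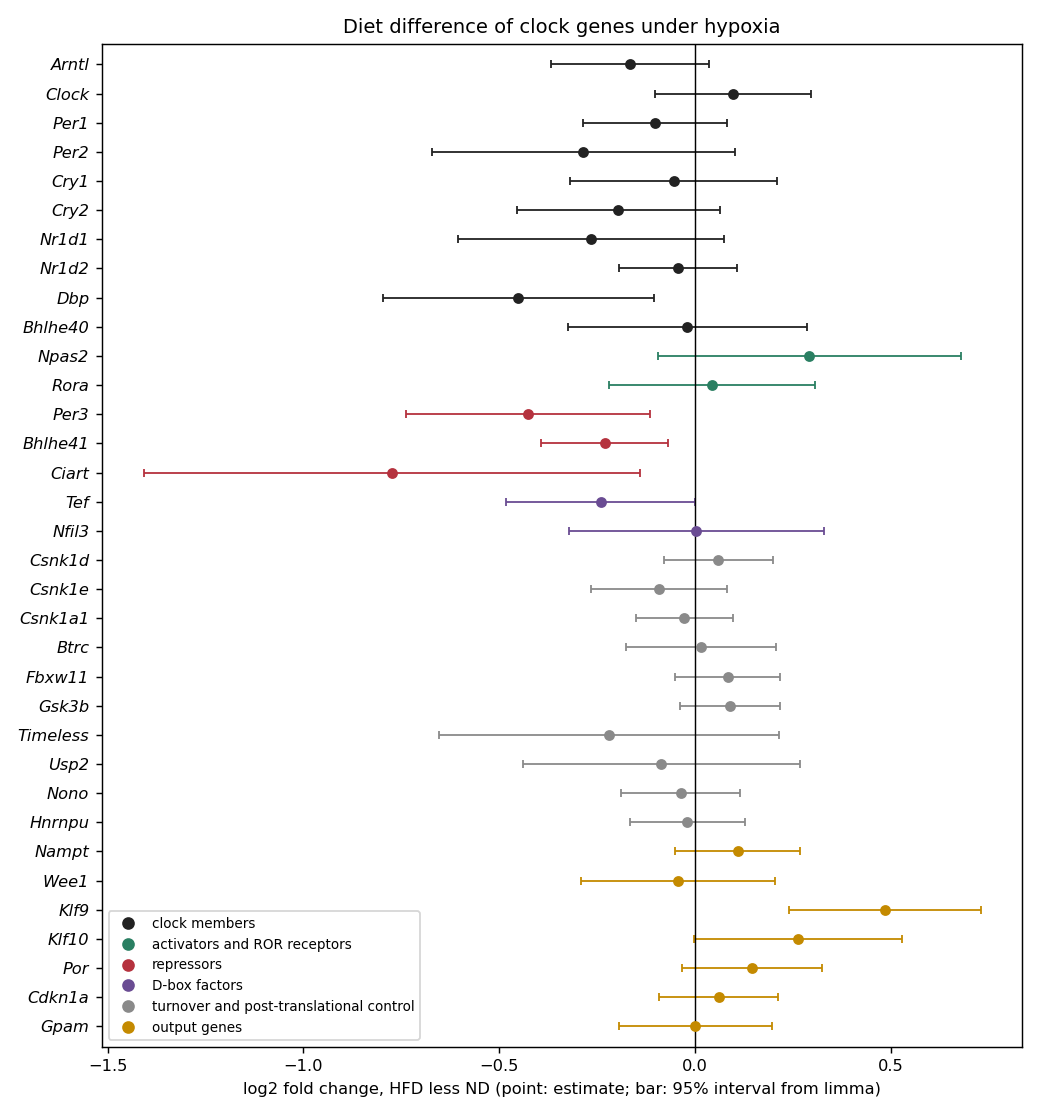
Log2 fold change, HFD less ND, with its 95% interval from limma, for the 10 members (black) and 24 other clock genes coloured by role. The intervals of *Dbp*, *Per3*, *Bhlhe41*, *Ciart* and *Tef* lie below 0 and that of *Klf9* above 0 before adjustment over 13232 genes, and after it none passes.

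*Per1* and *Bhlhe40* also respond to signals from outside the loop, so genes of those signals were read beside them. Of 10 glucocorticoid and cAMP responsive genes, 5 were higher and 5 lower in HFD (median -0.016 on the log2 scale) and none was past the adjusted threshold (limma), while at an unadjusted p under 0.05 there were 2 in each direction, beside 10.6% of all genes in either. *Sgk1*, a kinase gene induced by glucocorticoids, had 628, 583 and 569 in ND and 754, 848 and 712 in HFD, without overlap (log2 fold change 0.38, limma adjusted p 0.220). *Dusp1*, a phosphatase that shuts off MAP kinases, had 412, 573 and 642 in ND and 728, 721 and 828 in HFD, also without overlap (0.51, limma adjusted p 0.295, and 0.32 without ND replicate 1). *Tsc22d3*, the glucocorticoid-induced leucine zipper, lay the other way at 2029, 2111 and 1747 in ND and 1825, 1472 and 1220 in HFD (-0.40, limma adjusted p 0.353, and -0.26 without HFD replicate 3). Of 9 measured hypoxia responsive genes, 7 were higher and 2 lower (median 0.10). None passed the adjusted threshold (limma), and at an unadjusted p under 0.05 there were 2 higher and 1 lower, beside the same 10.6%. *Ero1l*, an oxidase of protein folding, had 1249, 1325 and 1365 in ND and 1548, 1646 and 1734 in HFD (0.32, limma adjusted p 0.196), and *Slc2a1*, a glucose transporter, had 1263, 1228 and 1832 in ND and 1731, 2000 and 2016 in HFD (0.43, limma adjusted p 0.327). *Ndrg1*, a stress-induced gene named here after its values were seen, lay the other way at 3224, 2731 and 2466 in ND and 2343, 2318 and 2267 in HFD (-0.27, limma adjusted p 0.352). In the alternatives the limma adjusted p lay between 0.0121 and 0.879 for *Sgk1*, 0.0179 and 0.879 for *Dusp1*, 0.0250 and 0.923 for *Tsc22d3*, 0.00854 and 0.860 for *Ero1l* and 0.0105 and 0.932 for *Slc2a1*. Each was lowest with libraries weighted by quality, and *Slc2a1* also passed without ND replicate 3 (0.0148). HFD and ND libraries were apart for *Ero1l* and *Ndrg1* and overlapped for *Slc2a1*, whereas *Bhlhe40* showed nearly the same range in each diet.

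The genes nearest to *Dbp* in their pattern over the 6 libraries were found by the root mean square difference of centred log2 values among 10794 genes with a mean of at least 100. They were *Arhgap19* (0.073), *Tsc22d3* (0.083) and *Slc26a11* (0.084), all lower in HFD and lowest in HFD replicate 3. *Per3* was the 14th nearest to *Dbp* (0.12) and *Tef* the 122nd (0.18), while *Nr1d1* was 686th and *Arntl* 1091st. The remaining members above that minimum ranked from 771st (*Cry1*) to 9919th (*Bhlhe40*), with *Clock* 8168th. *Npas2* (10559th) and *Klf9* (10604th) were among the least alike. Nearest to *Arntl* were *Cnot3* (0.016), *Ssbp1* (0.026) and *Zfp326* (0.027), and of the 8 other members above that minimum, all but *Per2*, *Per1* came closest, at rank 503. All points share the same 6 libraries, so these are descriptions of likeness and carry no p.

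To compare levels between members, values were divided by the length of the longest annotated transcript. On this scale the 10 genes fell into steps. *Nr1d2* (mean 406 per kilobase, lowest 376 and highest 427 of 6 libraries), *Dbp* (380, from 239 to 457) and *Bhlhe40* (378, from 319 to 455) were highest, and their ranges overlapped. *Per1* (180, from 160 to 193) and *Clock* (175, from 147 to 191) came next, again overlapping, and lay below the first 3 in all 6 libraries. *Arntl* followed alone at 79.4 (from 73.0 to 91.1), above *Nr1d1* (58.9, from 50.9 to 72.8), *Cry1* (58.5, from 50.4 to 61.5) and *Cry2* (52.3, from 42.3 to 58.8), which overlapped with each other. *Per2* was lowest at 13.1 (from 11.5 to 17.4), below *Cry2* in every library. With the mean length of the coding transcripts in place of the longest, 5 of the 10 kept their rank. On that scale *Arntl* (116, from 107 to 133) no longer stood alone, since its range overlapped that of *Cry1* (111, from 95.3 to 116). *Cry1* was then above *Cry2* (67.8, from 54.8 to 76.2) and *Nr1d1* (58.9, from 50.9 to 72.8) without overlap. *Bhlhe40* (656, from 554 to 789) came above *Dbp* (493, from 310.5 to 594), with overlapping ranges, and *Nr1d2* (701, from 649 to 737) was above *Dbp* without overlap. The place of *Per2* as lowest, and of *Per1* and *Clock* below the first 3, held on both scales.

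**Figure D4:**
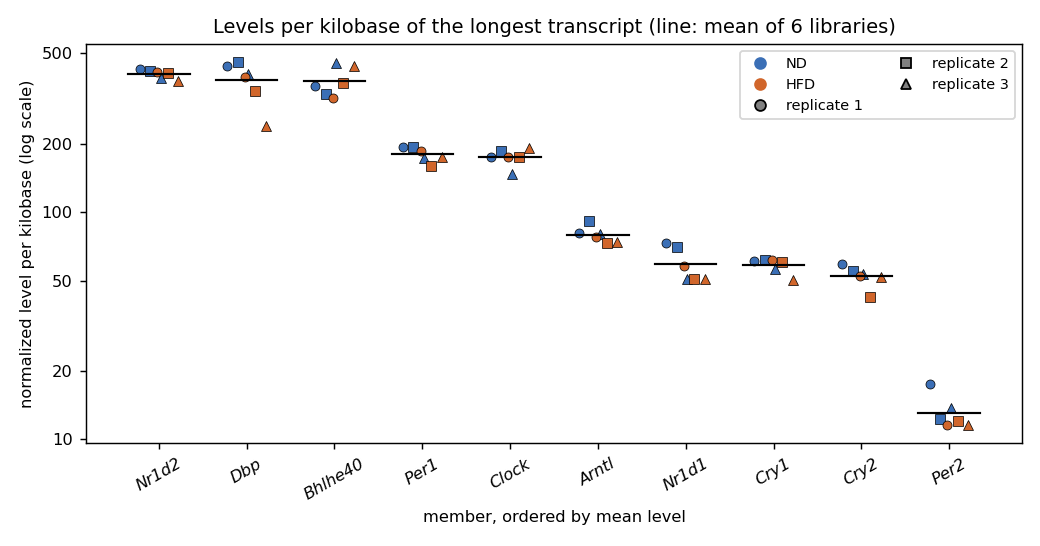
Normalized level per kilobase of the longest transcript (log axis) for each member in 6 libraries, ordered by mean, with the mean as a line. Levels run from about 406 for *Nr1d2* to 13.1 for *Per2*, and *Dbp* has the widest range relative to its mean.

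The remaining ratios within a library gave no separation of the diets. The log2 ratio of *Dbp* to *Arntl* was 1.33, 1.21 and 1.23 in ND and 1.22, 1.11 and 0.57 in HFD. HFD replicate 1 lay inside the ND range and HFD replicate 3 far below it, and the difference of means was -0.29 with all libraries and -0.088 without HFD replicate 3. For *Per1* over *Per2* the ratio was 3.15, 3.66 and 3.33 in ND and 3.69, 3.40 and 3.60 in HFD. *Nr1d1* over *Nr1d2* gave -3.33, -3.36 and -3.71 in ND and -3.63, -3.78 and -3.66 in HFD, with ND replicate 3 among the HFD libraries.

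**Figure D5:**
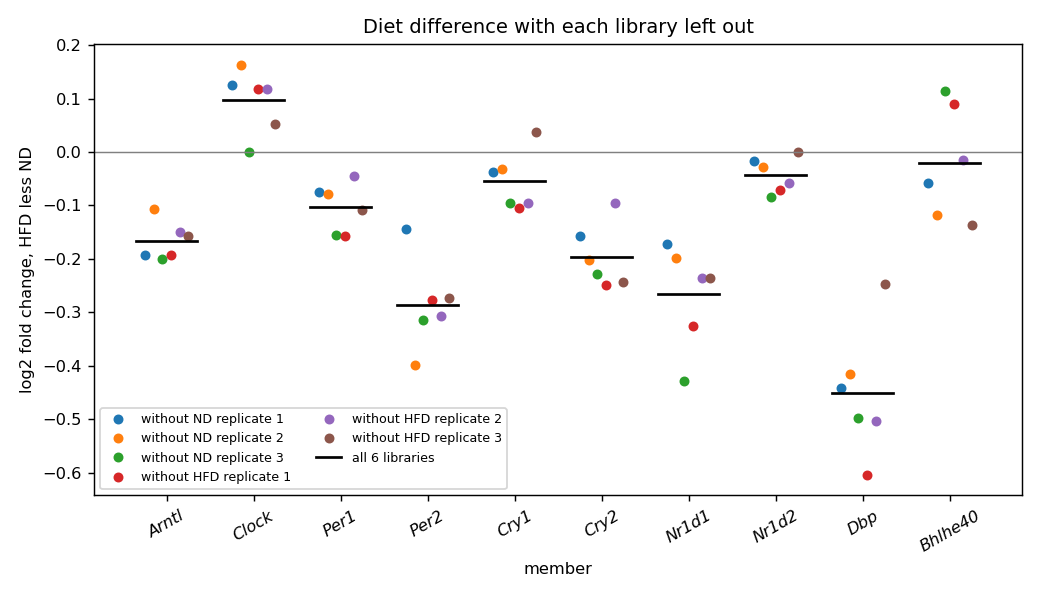
Log2 fold change of each member, HFD less ND, with all 6 libraries (line) and with each library left out (points). *Dbp* ranges from -0.60 to -0.25 and stays below 0, as do *Arntl*, *Per1*, *Per2*, *Cry2* and *Nr1d1*, whereas *Cry1*, *Nr1d2* and *Bhlhe40* take either sign.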

How the data were processed

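The authors deposited a signal, which the values show to be estimated gene counts scaled per library (57.0% to 58.3% of those between 5 and 1000 are whole multiples of 1 step within 0.02, so whole reads were not recovered and no count test was run). STAR, Partek and mm10 are named per the submitters' processing notes. Versions, annotation, filters and strand setting are not given in the sources used here. NC in a column name was read as normal diet.

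The diets (3 libraries each) were compared on log2(value + 1) by limma 3.58.1, run under R 4.3.3 (mean-variance trend, two-sided, Benjamini-Hochberg over 13232 genes), a procedure checked on simulated data. This scale understates changes of low genes. Members, lists and tests were chosen with earlier results of these data known. Genes named were the 10 members, the 6 other clock genes and the 2 of each signal list with the smallest p, and the 3 nearest to *Dbp* and to *Arntl*. Others were named after their values were seen. Depth is each column's sum over the value of 1 read, and counting errors cover counting only. Libraries were not treated as paired by replicate number. Over all genes, deviations from the diet mean did not correlate between libraries of the same number (correlations -0.0086, -0.037 and -0.00069). This cannot exclude a pairing that affects some genes. Transcript lengths, overlaps and identical windows (blastn 2.17.0) came from GENCODE M21 on GRCm38, promoters from RefSeq. Alternatives were a pseudocount of 0.1, a minimum of 10, quantile and total scaling, no trend, array weights, each library left out and a replicate block. A gene of the wider list entered the counts but is not reported here by itself.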

Additional observations from a re-analysis of the deposited data

How the results depend on the processing

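No member passed the adjusted threshold under any of the 13 alternatives run, and 125 of 130 member values kept their sign. The exceptions were *Bhlhe40* (0.022 with array weights, 0.090 without HFD replicate 1), *Cry1* and *Nr1d2*. With 1 library left out *Bhlhe40* lay between -0.14 and 0.11 (highest without ND replicate 3), *Cry1* between -0.11 and 0.037 and *Nr1d2* between -0.084 and 0.00088 (both highest without HFD replicate 3). The cause was not tested. With array weights (0.441 for ND replicate 3, 3.09 for HFD replicate 2) 1133 of 13232 genes were called, and 3646 of 13232 had an unadjusted p under 0.05. At that unadjusted level were 6 of the 10 members and 8 of the 25 other clock genes. Of the other clock genes 5 were called, and their median was -0.025. Leaving out 1 library gave 0 to 233 genes called (700 to 2309 unadjusted), 1 to 2 members at an unadjusted p, 4 to 7 members without overlap (9.33% to 18.2% of all genes, the highest of both without ND replicate 3), 3 to 7 other clock genes at an unadjusted p, 0 to 1 called, and their median from -0.022 to 0.020. The highest count of genes called, 233, came without ND replicate 3, as did the 7 members. The replicate block, with numbers not known to pair the libraries, called 31 genes and no member. The ROR element count was 1 and became 0 in the 250 bases before the start, since the match in *Arntl* lies after it, and 5 members kept their rank with mean coding length. Of 208 values of the 16 other named genes, 196 kept sign and side of the threshold and 12 came to pass it. Of the members, depth limits *Per2* most.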
